A study of Mus musculus with 90 samples.

Results

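Tumour-infiltrating CD8 T cells that are high for PD-1 and negative for TIM-3, called SP here after the column names, were compared between mice of the genotype the labels write Ebi3L and mice of the genotype they write yfp, which is the control. The comparison rests on 6 libraries, 3 Ebi3L and 3 yfp, chosen by their labelled population and genotype out of 60 CD8 libraries and 90 libraries in the whole series. The series' design text describes IL-10, IL-35 and double knockouts that are specific to regulatory T cells (Tregs), so the CD8 cells that were sequenced are not described as the cells that carry the deletion. All 6 libraries were made from cells sorted in 2 rounds to high purity, with SMART-Seq v3 cDNA synthesis and Nextera XT library preparation, per the labels' protocols. The age of the mice, the tumour behind each library, the driver of the deletion, and whether animals were pooled were not given in the sources used here. Ebi3L library 1 and yfp libraries 1 and 2 belong to batch 1, and Ebi3L libraries 2 and 3 and yfp library 3 to batch 3. The labels also give library sets, which are 10, 12 and 13 for Ebi3L libraries 1, 2 and 3. For yfp libraries 1, 2 and 3 they are 8, 12 and 13. Library 2 of both genotypes is thus in set 12 under different batch labels, and batch was used as labelled. Values below are listed in the order of libraries 1, 2 and 3 of a genotype. The same fit also took the 4 SP libraries of the genotype written DKO and the 2 of the genotype written Il10. The comparison addresses what tumour CD8 cells of this state express when Tregs lack IL-35.

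IL-35 is a heterodimer of Ebi3, a chain it shares with IL-27, and the p35 chain encoded by Il12a, which it shares with IL-12. Tregs are a main source of IL-35 in mice, and the cytokine is known for restraining T cells in tumours, acting through the receptor chains Il12rb2 and gp130 (Il6st). CD8 T cells exposed to tumour antigen for long take up PD-1 first and TIM-3 later as they become exhausted, and the cells with PD-1 alone are known to hold the precursors that still divide and make cytokines.

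Library totals were 31.7, 22.5 and 30.6 M counts in the Ebi3L libraries and 29.3, 28.8 and 30.7 M counts in the yfp libraries, and 12755 to 14363 genes had a count. A count of 3 corresponds to 0.0946 to 0.133 CPM (counts scaled to the library total) in these libraries, so a gene at 0 may lie below that level, and this floor covers counting error only. The sort matched its label. Pdcd1, which encodes PD-1, had 1295, 1093 and 1378 CPM in the Ebi3L libraries and 1303, 1642 and 880.3 CPM in the yfp libraries, where the PD-1-negative, TIM-3-negative population (NEG) of the same genotypes had 9.59 to 35.7 CPM. Havcr2, which encodes TIM-3, had 49.8, 22.9 and 7.18 CPM in the Ebi3L libraries and 71.2, 82.2 and 33.0 CPM in the yfp libraries, where the TIM-3-positive population (DP) of the same genotypes had 184 to 473 CPM. Between the genotypes the SP levels of Havcr2 overlapped across batches, with a log2 difference of -0.95 ± 0.45 (SE). Within each batch they were apart, with every Ebi3L library below every yfp library. Yfp library 1 stood apart from the other 5: it held 505 CPM of Xist, the RNA of the inactive X chromosome, and 0 CPM of the Y-linked genes Ddx3y, Eif2s3y, Kdm5d and Uty, while the others held at most 3.37 CPM of Xist and 110 to 203 CPM of Ddx3y. Sex is not in the labels used here, so the main results are also given without that library. The values are from bulk RNA, in which fewer cells of a type and less RNA per cell cannot be told apart, and the labels do not tie the libraries to animals; the tests use the spread between libraries, which may be partly technical.

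Of 13255 genes tested with edgeR's quasi-likelihood test over the 12 SP libraries of all genotypes with batch as a term, 0 were higher and 0 were lower in Ebi3L cells at a Benjamini-Hochberg adjusted p under 0.05. At an unadjusted p under 0.05 there were 618 genes, or 4.66%, of which 295 (2.23%) were higher and 323 (2.44%) lower. DESeq2 on the same libraries called 111 genes (0.84%), 59 of them higher and 52 lower, while limma called 0 when run on the log2 values of the authors. The DESeq2 calls held all 20 genes of smallest p in edgeR, 10 in each direction, from the same counts. Every gene described below failed the adjusted threshold in SP cells in the edgeR fit over the 12 libraries, and its values are given as a description. All 3 Ebi3L libraries lay above all 3 yfp libraries for 532 genes (4.01%) and below them for 376 genes (2.84%), which is the background for each count of genes whose groups did not overlap. Without yfp library 1 edgeR called 2 of 13166 genes (0.0152%), Ifitm2 and Rab4a, both higher. Other fits in edgeR called 5 genes (0.0418%) over the 6 libraries alone, 2 (0.0161%) over those without yfp library 1, 6 (0.0453%) with the library set as a block, 3 (0.0251%) with the title number as a block, and 157 (0.839%) with no filter on low counts.

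Ebi3 itself, the gene named by the genotype, was lower in the SP cells. It had 1.64, 0.577 and 0 CPM in the Ebi3L libraries, against 10.9, 19.1 and 22.5 CPM in the yfp libraries. Each Ebi3L value was far below each yfp value, with a log2 difference of -4.74 ± 1.27 (SE) and an edgeR adjusted p of 0.684 (unadjusted p = 0.00294; DESeq2 adjusted p = 0.00286). Ebi3 was detected in these CD8 libraries, and the described deletion is in Tregs. In the same libraries Foxp3, the Treg lineage factor, had 0, 0 and 0.0653 CPM in Ebi3L cells and 0, 0 and 1.20 CPM in yfp cells. Cd4 had 0.0630, 0 and 0 CPM in Ebi3L cells and 0.136, 2.60 and 0 CPM in yfp cells. The summed level of 12 CD4 T cell and Treg markers, described below, was 1180, 2134 and 2442 CPM in Ebi3L cells. In yfp cells it was 834, 1174 and 1174 CPM. The source of the Ebi3 transcripts was not tested.

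Among the CD8 populations of the yfp mice, SP cells had the highest mean level of Ebi3. DP cells had 0.146, 0.0337 and 0 CPM in the Ebi3L libraries, against 2.38, 2.31 and 2.17 CPM in the yfp libraries, and did not overlap either. PD-1-intermediate cells (INT) had 0.0431, 0.152 and 0 CPM in the Ebi3L libraries, against 1.04, 0 and 16.4 CPM in the yfp libraries, so a single yfp library carried most of the signal there. NEG cells and non-draining lymph node cells (NDLN) had 0 CPM in every Ebi3L library and at most 0.932 and 1.54 CPM in a yfp library. The partner chain Il12a had 0 CPM in every SP Ebi3L library and 0.171, 0 and 0 CPM in the yfp libraries, too few counts to be tested. Il23a, a subunit of IL-23, had 0, 4.93 and 2.19 CPM in Ebi3L cells and 0 CPM in all 3 yfp libraries, and the groups shared a value of 0. Of the receptor chains for IL-35, Il12rb2 had 27.3, 10.5 and 13.2 CPM in Ebi3L cells and 39.1, 49.96 and 13.8 CPM in yfp cells (log2 difference -0.54 ± 0.33), and Il6st had 40.5, 11.3 and 7.51 CPM in Ebi3L cells and 22.1, 35.7 and 13.3 CPM in yfp cells (-0.08 ± 0.43). Il10 had 6.37, 4.22 and 0 CPM in Ebi3L cells and 3.00, 0 and 0.0976 CPM in yfp cells. Of the 8 tested members of the list of IL-35, IL-12 and IL-27 family subunits and receptors, Ebi3 alone was below an unadjusted p of 0.05, and the list's median log2 difference was -0.12, against -0.02 over all genes tested. The sign of that median was not stable: it was 0.024 without yfp library 1, with 4 members positive and 4 negative, and -0.38 within batch 1 and 0.11 within batch 3.

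**Figure D1:**
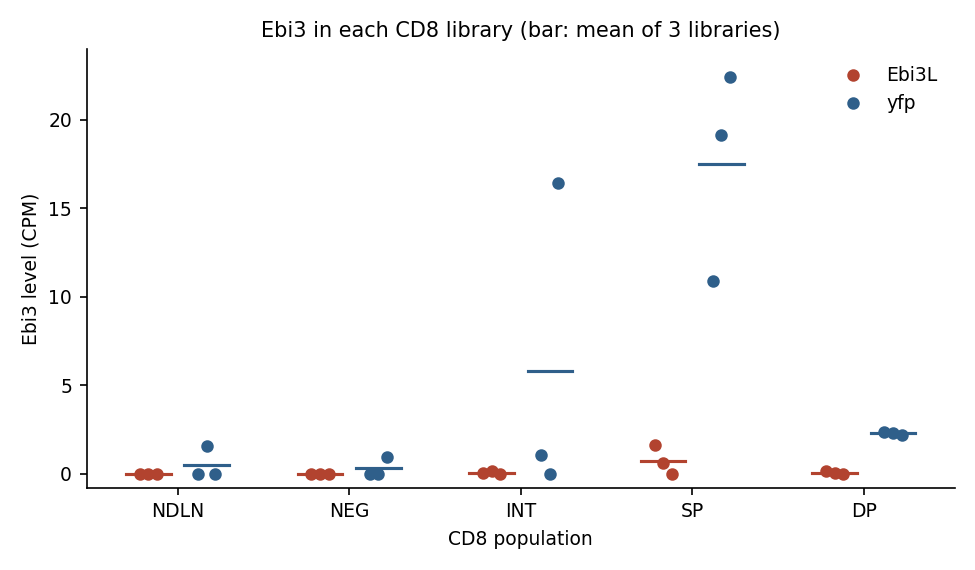
Ebi3 in CPM in each library of 5 CD8 populations, with Ebi3L in red left of yfp in blue and a bar at the mean of 3 libraries. The yfp SP libraries lie at 10.9 to 22.5 CPM and the Ebi3L SP libraries at 0 to 1.64 CPM.

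Interferon response genes leaned lower in Ebi3L cells. Cells switch these genes on when type I or type II interferon binds its receptor and STAT proteins move to the nucleus, and their products block viruses or tag and degrade proteins. Of 48 tested genes of the list, 47 had a negative log2 difference and 23 were lower at an unadjusted p under 0.05, against 2.44% of all genes tested, while 0 were higher. The groups did not overlap for 12 of the 48 with Ebi3L lower, against 2.84% of all genes, and for 1 with Ebi3L higher. The median log2 difference of the list was -0.72. The summed level of the list was 5789, 5169 and 5256 CPM in the Ebi3L libraries, against 13609, 8600 and 7152 CPM in the yfp libraries, so the sums did not overlap (exact permutation p = 0.1, two-sided, the smallest that 3 against 3 libraries allow).

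Usp18, which removes the ubiquitin-like ISG15 from proteins and dampens signalling from the type I interferon receptor, had 71.8, 59.9998 and 46.6 CPM in Ebi3L cells, against 372, 135 and 134 CPM in yfp cells. The groups did not overlap, with yfp library 1 the highest (log2 difference -1.65 ± 0.34, edgeR adjusted p = 0.355).

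Ly6a, the surface antigen Sca-1 that interferon induces on mouse T cells, had 470.4, 426 and 676 CPM in Ebi3L cells, against 1186, 869 and 1283 CPM in yfp cells. Phf11b, an interferon-induced PHD finger gene, had 101, 144 and 147 CPM in Ebi3L cells, against 334, 203 and 266 CPM in yfp cells. Neither gene's groups overlapped, with log2 differences of -1.25 ± 0.27 for Ly6a and -1.22 ± 0.26 for Phf11b and an edgeR adjusted p of 0.364 for each. Among the GTPases that interferon induces against pathogens in vacuoles, all chosen for naming after their values were seen, Ifi47 had 216, 187 and 156 CPM in Ebi3L cells, against 575, 416 and 272 CPM in yfp cells. Igtp had 119, 101 and 139 CPM in Ebi3L cells, against 365, 287 and 159 CPM in yfp cells. Iigp1 had 3.59, 0.488 and 0 CPM in Ebi3L cells, against 75.3, 21.6 and 11.9 CPM in yfp cells. These 3 did not overlap between the genotypes, whereas Gbp6, a guanylate-binding protein, did, with 57.3, 15.6 and 34.1 CPM in Ebi3L cells, against 245, 164 and 54.4 CPM in yfp cells. Their log2 differences were -1.003 ± 0.27 for Ifi47, -1.002 ± 0.34 for Igtp, -4.63 ± 1.17 for Iigp1 and -1.56 ± 0.40 for Gbp6.

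A further 3 members of the list were named after their values were seen. Oas1a, which makes the second messenger that activates RNase L, had 14.5, 11.7 and 8.16 CPM in Ebi3L cells, against 44.0, 19.9 and 19.7 CPM in yfp cells. Bst2, the tetherin that holds budding virus at the membrane, had 89.9, 112 and 71.9 CPM in Ebi3L cells, against 184, 120.0 and 198 CPM in yfp cells. For both genes the groups did not overlap, although Ebi3L library 2 and yfp library 2 came close for Bst2 (log2 differences -1.14 ± 0.41 for Oas1a and -1.01 ± 0.29 for Bst2). Slfn5, a Schlafen family gene, was the 1 member with a positive difference, at 41.2, 42.1 and 46.8 CPM in Ebi3L cells and 39.7, 35.3 and 25.4 CPM in yfp cells (0.40 ± 0.42). Several of these genes (the Gbp, Oas, Phf11, Ly6 and Ifit families) have near-identical relatives, and how the authors' counting split shared reads is not known here, which leaves single values in these families uncertain. The MHC class I and antigen processing genes, which interferon also induces, were below 0 for all 14 tested members with a median log2 difference of -0.31, and 4 of them were lower at an unadjusted p under 0.05 against 2.44% of all genes. The smallest p among them was that of the immunoproteasome subunit Psmb9, with 283, 447 and 452 CPM in Ebi3L cells and 357, 339 and 657 CPM in yfp cells (-0.50 ± 0.17), and its partner Psmb8 had 1414, 2170.2 and 2076 CPM in Ebi3L cells and 1527, 1685 and 2603 CPM in yfp cells (-0.31 ± 0.12). Both overlapped between genotypes and were apart within each batch.

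**Figure D2:**
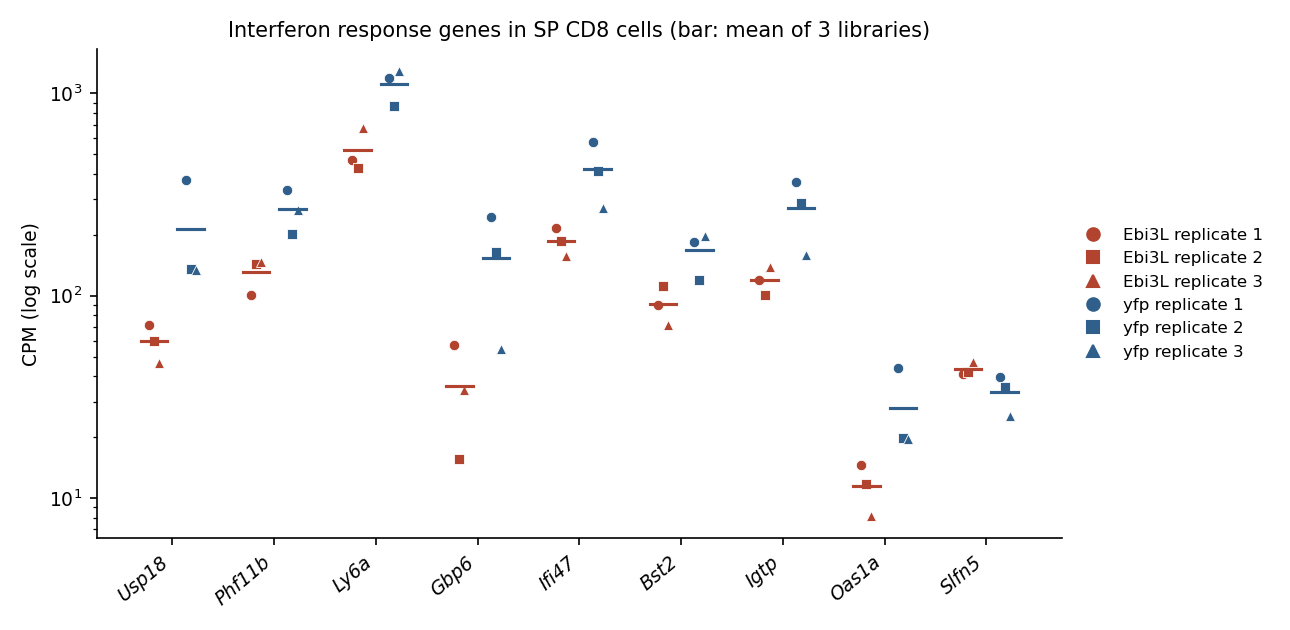
CPM on a log scale of 9 interferon response genes in the 6 SP libraries, Ebi3L in red left of yfp in blue, with symbols for the libraries and a bar at each mean. Usp18 lies at 46.6 to 71.8 CPM in Ebi3L cells and at 134 to 372 CPM in yfp cells, and Slfn5 is the gene whose Ebi3L values are the higher ones.

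The median interferon difference varied in size with yfp library 1 and between the batches, and its sign did not. Yfp library 1 belongs to batch 1, so its part and that of the batch cannot be told apart from these values. Yfp library 1 had the highest summed level of the list, 13609 CPM. Without it the median log2 difference of the 48 genes was -0.465, with 42 negative, 14 lower at an unadjusted p under 0.05 against 1.66% of all genes, and 12 not overlapping with Ebi3L lower against 4.81%. The median was -0.98 within batch 1, where 1 Ebi3L library met 2 yfp libraries, and -0.43 within batch 3, where 2 Ebi3L libraries met 1. For 25 of the 48 genes all Ebi3L values were below all yfp values within both batches, against 8.4% of all genes tested.

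Lower interferon genes were also seen in the other CD8 populations of the same genotypes, each fitted on its own 12 libraries. These fits include yfp library 1 of each population, from the same set as SP yfp library 1, and were not repeated without it. For Usp18 yfp library 1 was the highest in INT (725, 212 and 299 CPM), NEG (577, 170 and 354 CPM) and DP cells (186.5, 51.0 and 60.3 CPM). For Ly6a yfp library 3 was the highest in each of these populations. In INT cells the median of 48 genes was -0.699, with 30 lower at an unadjusted p under 0.05 against 2.51% of all genes. In DP cells the median of 47 genes was -0.604, with 13 lower against 3.21%. In NEG cells the median of 48 genes was -0.502, with 15 lower against 2.42%, and in NDLN cells the median of 47 genes was -0.318, with 15 lower against 2.46%. The order of the medians therefore ran from SP, the most negative, through INT, DP and NEG to NDLN, but the libraries of the populations share sources and batches, and the difference between SP and INT had 0 genes called out of 13074 (449 or 3.43% at an unadjusted p under 0.05). In a direct test of the difference, 5 of the 48 genes were below an unadjusted p of 0.05 between SP and INT, against 3.43% of all genes, and 8 between SP and DP, against 3.11%, and 0 passed the adjusted threshold in either.

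**Figure D3:**
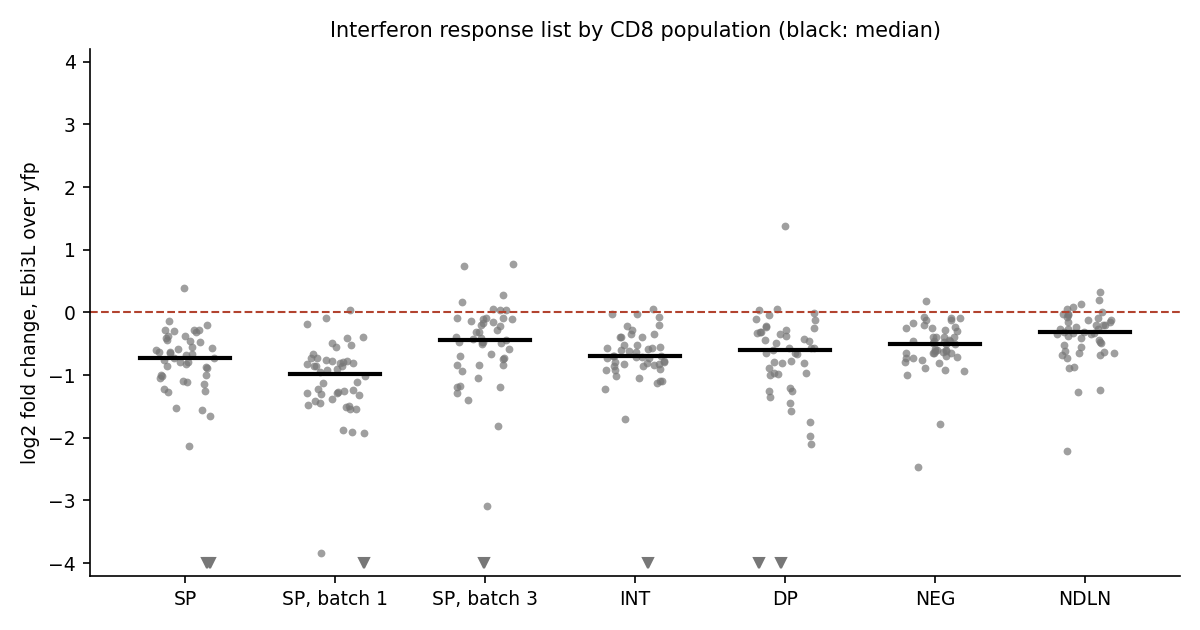
Log2 fold change, Ebi3L over yfp, of each tested interferon response gene in SP cells, in SP cells within batch 1 and within batch 3, and in the INT, DP, NEG and NDLN populations. Black lines are medians, the dashed line marks no difference, and triangles at the lower edge are genes below the axis; the SP median is -0.72 and the NDLN median -0.318.

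Promoters of the interferon list were searched for letters that interferon-activated factors are known to bind. The interferon-stimulated response element is built around a pair of GAAA blocks, searched here as GAAA, any 2 bases and GAAA (TTTC on the other strand) in the 250 bases before to 50 bases after each annotated start (RefSeq, GRCm38.p6). The letters were found in 19 of 32 interferon list genes with a promoter in the table (59.4%), and in 6 of the 7 of these whose groups did not overlap with Ebi3L lower, against 3.76% of 9748 genes tested and 3.99% of 27025 genes in all. The 3 list members below show the 250 bases before the start, with the matching letters in capitals.
Phf11b, chr14:59341331-59341580, minus strand: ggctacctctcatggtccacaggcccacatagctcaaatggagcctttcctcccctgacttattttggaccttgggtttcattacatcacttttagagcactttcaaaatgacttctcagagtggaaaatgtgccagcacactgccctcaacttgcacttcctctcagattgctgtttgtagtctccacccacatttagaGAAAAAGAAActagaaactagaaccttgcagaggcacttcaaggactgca
Oas1a, chr5:120907526-120907775, minus strand: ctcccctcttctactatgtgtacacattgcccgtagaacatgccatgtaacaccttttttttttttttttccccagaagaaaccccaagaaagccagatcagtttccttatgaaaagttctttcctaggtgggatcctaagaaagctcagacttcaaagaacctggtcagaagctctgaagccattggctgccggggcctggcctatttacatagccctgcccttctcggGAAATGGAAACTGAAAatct
Igtp, chr11:58199306-58199555, plus strand: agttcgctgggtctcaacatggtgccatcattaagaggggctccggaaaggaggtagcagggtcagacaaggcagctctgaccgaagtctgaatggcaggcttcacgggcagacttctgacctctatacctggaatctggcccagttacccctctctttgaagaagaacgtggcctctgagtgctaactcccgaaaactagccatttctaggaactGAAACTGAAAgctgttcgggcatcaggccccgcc
In Oas1a 2 matches overlap in a run of 3 GAAA blocks. A match is a description of these letters and not a measured binding site.

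Genes on the other side of the comparison included cytokines that activated T cells make. Of the 25 tested cytokine and chemokine genes, 9 were higher at an unadjusted p under 0.05 against 2.23% of all genes, and 3 were lower against 2.44%. The groups did not overlap for 8 with Ebi3L higher, against 4.01% of all genes, and for 1 with Ebi3L lower, and the median log2 difference was 0.34. The summed level overlapped, at 2493, 4786 and 4632 CPM in Ebi3L cells and 2729, 2918 and 3673 CPM in yfp cells (exact permutation p = 0.4, two-sided). Il2, the growth factor of T cells, had 26.6, 4.57 and 5.94 CPM in Ebi3L cells, against 1.60, 0.659 and 0.391 CPM in yfp cells. Ccl1, the ligand of the chemokine receptor CCR8, had 128, 475 and 597 CPM in Ebi3L cells, against 16.9, 27.9 and 87.4 CPM in yfp cells. Neither gene's groups overlapped, the Ebi3L maximum of Il2 being library 1 and that of Ccl1 library 3. The log2 differences were 4.12 ± 0.76 for Il2 and 2.49 ± 0.44 for Ccl1, each with an edgeR adjusted p of 0.223.

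Csf2, which encodes GM-CSF and was named after its values were seen, had 178, 261 and 343 CPM in Ebi3L cells, against 55.8, 49.2 and 89.3 CPM in yfp cells (log2 difference 1.69 ± 0.38, edgeR adjusted p = 0.371). Tnfsf8, the ligand of CD30, had 152, 149 and 271 CPM in Ebi3L cells, against 48.8, 79.1 and 58.8 CPM in yfp cells (1.47 ± 0.29, adjusted p = 0.271). Tnfsf11, the osteoclast factor RANKL and also named after its values were seen, had 68.3, 58.4 and 101 CPM in Ebi3L cells, against 32.1, 25.5 and 38.7 CPM in yfp cells (1.07 ± 0.29). Each of these 3 genes was higher in every Ebi3L library than in any yfp library. Ifng, the type II interferon, and the chemokine Ccl3 had lower values in Ebi3L cells. Ifng had 136, 116 and 134 CPM in Ebi3L cells and 179, 143 and 181 CPM in yfp cells (-0.46 ± 0.30, unadjusted p = 0.154). Ccl3 had 44.7, 195 and 113 CPM in Ebi3L cells and 144, 126 and 273 CPM in yfp cells (-1.28 ± 0.28, adjusted p = 0.371). The Ifng groups were apart by a small margin, and the Ccl3 groups overlapped across batches and were apart within each.

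Ifitm2 had the smallest p of all genes tested. It encodes an interferon-induced membrane protein that restricts virus entry, and it is not in the interferon list used here. It had 31.5, 19.97 and 34.1 CPM in Ebi3L cells, against 5.80, 2.57 and 1.66 CPM in yfp cells, with no overlap, and so lay on the other side of 0 from the median of the interferon response list (log2 difference 3.37 ± 0.45, edgeR adjusted p = 0.0849). It was one of the 2 genes called without yfp library 1, at 3.79 with an adjusted p of 0.0197. In the other populations Ifitm2 was uneven: INT cells had 5.18, 25.2 and 54.3 CPM in Ebi3L libraries and 2.19, 10.5 and 3.82 CPM in yfp libraries, and DP cells had 1.39, 0.606 and 59.5 CPM in Ebi3L libraries and 7.08, 2.58 and 4.76 CPM in yfp libraries. Ifitm2 has close relatives in the same gene cluster, so its reads may be shared with them.

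Rab4a, a small GTPase that returns receptors from endosomes to the cell surface, was higher in Ebi3L cells of 3 tumour populations. In SP cells it had 23.9, 12.2 and 15.998 CPM in Ebi3L libraries, against 0.478, 2.98 and 1.86 CPM in yfp libraries. INT cells had 28.7, 13.7 and 16.5 CPM in Ebi3L libraries, against 4.70, 4.37 and 1.81 CPM in yfp libraries, and DP cells had 32.7, 5.55 and 15.1 CPM in Ebi3L libraries, against 3.47, 3.98 and 4.88 CPM in yfp libraries. In all 3 populations every Ebi3L library exceeded every yfp library. The log2 difference in SP cells was 3.29 ± 0.52 (edgeR adjusted p = 0.191; 2.90 with an adjusted p of 0.0197 without yfp library 1). In INT cells Rab4a rose by 2.79 on the log2 scale with an adjusted p of 0.0128, the 1 gene called there of 12909 (0.00775%). The differences were 2.08 in DP, 1.15 in NEG and 0.62 in NDLN cells, none of them called.

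Penk, which encodes the precursor of the enkephalin opioid peptides, had the highest mean level among the 10 higher genes of smallest p. It had 254, 686 and 502 CPM in Ebi3L cells, against 22.2, 41.2 and 84.2 CPM in yfp cells (log2 difference 2.84 ± 0.50, adjusted p = 0.223). Bcl2l1, which encodes the survival protein BCL-XL, had 61.9, 31.2 and 23.6 CPM in Ebi3L cells, against 22.6, 19.7 and 11.7 CPM in yfp cells (1.32 ± 0.25, adjusted p = 0.267). Bmp7, a growth factor of the TGF-beta superfamily, had 33.7, 12.6 and 14.4 CPM in Ebi3L cells, against 4.88, 2.88 and 5.08 CPM in yfp cells (2.19 ± 0.43, adjusted p = 0.271). In each of the 3 genes the lowest Ebi3L library was above the highest yfp library. The last 2 of the 10 are best known from B cells. H2-Oa, a chain of the regulator of MHC class II peptide loading, had 42.3, 52.4 and 76.0 CPM in Ebi3L cells, against 12.2, 15.01 and 27.6 CPM in yfp cells (1.35 ± 0.25, adjusted p = 0.223). Cd72, a lectin-like coreceptor, had 32.8, 51.4 and 52.8 CPM in Ebi3L cells, against 14.5, 8.74 and 11.6 CPM in yfp cells (1.76 ± 0.33, adjusted p = 0.223).

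B cell markers were low beside these values. The summed level of 13 B cell markers was 16.2, 13.6 and 20.2 CPM in Ebi3L cells, against 11.6, 6.03 and 5.79 CPM in yfp cells, so the sums did not overlap. Most of the sum was Cd79b, at 9.42, 9.05 and 13.5 CPM in Ebi3L cells and 8.70, 5.03 and 4.43 CPM in yfp cells. Cd22 had 5.58, 0.0888 and 4.57 CPM in Ebi3L cells and 2.15, 0.0347 and 0.228 CPM in yfp cells, with overlap. Of the 7 tested B cell markers 6 had a positive log2 difference, with a median of 0.83. At an unadjusted p under 0.05, 0 of them were higher and 0 lower. The markers Ms4a1 and Pax5 were at 0 in all 6 libraries. The part of B cells in these values was not tested.

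**Figure D4:**
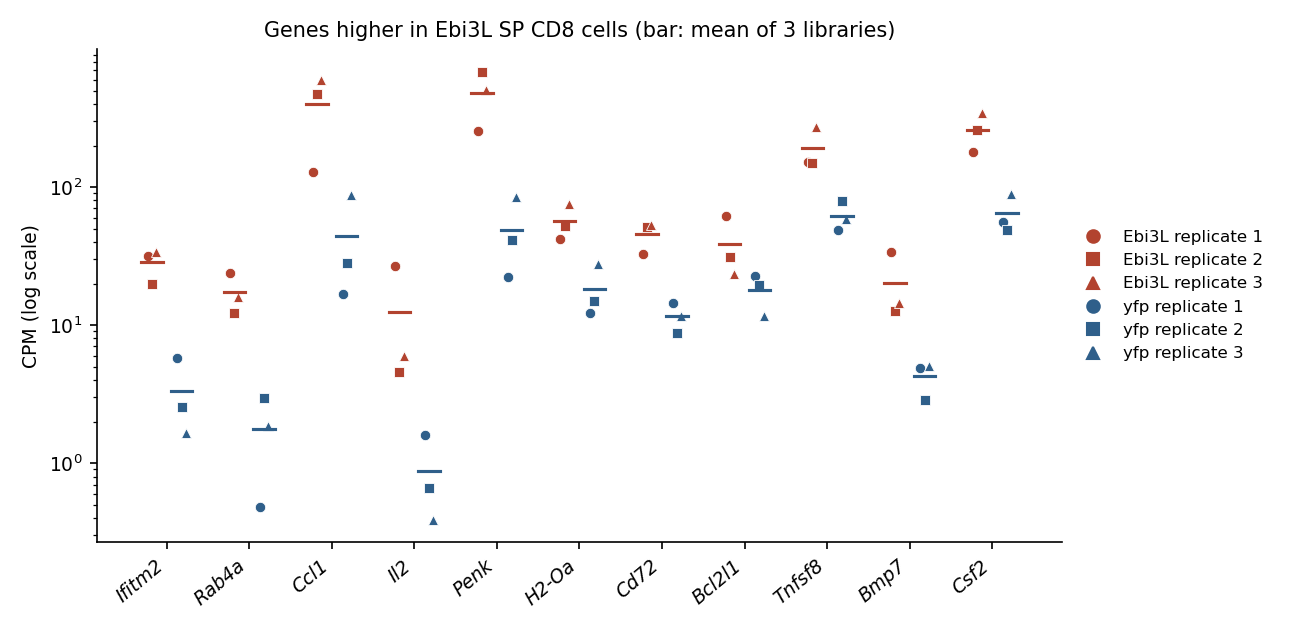
CPM on a log scale of the 10 genes of smallest p with higher values in Ebi3L SP cells and of Csf2, Ebi3L in red left of yfp in blue, with symbols for the libraries and a bar at each mean. The groups do not overlap for any of the 11 genes; Penk lies at 254 to 686 CPM in Ebi3L cells and at 22.2 to 84.2 CPM in yfp cells.

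NFAT, the factor that calcium signalling through the T cell receptor brings to the nucleus, is known to bind sites with the letters GGAAAA in cytokine promoters. Searched on either strand in the same windows, these letters were found in 5 of the 7 higher genes with a promoter in the table (Bcl2l1, Ccl1, H2-Oa, Ifitm2 and Il2) and in 4 of the 6 lower genes of smallest p, against 24.1% of all genes tested. The cytokine and chemokine list had them in 6 of 20 tested genes with a promoter (30.0%), near that share. In the interferon list they were in 13 of 32 (40.6%). The letters thus did not set the higher cytokines apart. The 250 bases before the start of Il2 and Ccl1 are shown with the NFAT letters in capitals, and those of Ifitm2 with its match to the interferon element in capitals, because Ifitm2 carries the element and yet was higher.
Il2, chr3:37125955-37126204, minus strand: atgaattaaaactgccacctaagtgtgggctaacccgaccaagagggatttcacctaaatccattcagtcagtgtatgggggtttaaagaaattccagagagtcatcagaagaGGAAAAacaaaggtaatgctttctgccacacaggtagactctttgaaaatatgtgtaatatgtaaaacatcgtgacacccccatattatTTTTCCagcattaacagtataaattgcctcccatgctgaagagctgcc
Ccl1, chr11:82179813-82180062, minus strand: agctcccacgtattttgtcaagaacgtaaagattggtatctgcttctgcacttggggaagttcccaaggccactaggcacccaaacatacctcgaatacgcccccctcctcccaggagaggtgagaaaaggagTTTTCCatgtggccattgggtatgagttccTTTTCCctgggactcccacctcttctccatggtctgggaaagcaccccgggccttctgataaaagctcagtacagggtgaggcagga
Ifitm2, chr7:140955962-140956211, minus strand: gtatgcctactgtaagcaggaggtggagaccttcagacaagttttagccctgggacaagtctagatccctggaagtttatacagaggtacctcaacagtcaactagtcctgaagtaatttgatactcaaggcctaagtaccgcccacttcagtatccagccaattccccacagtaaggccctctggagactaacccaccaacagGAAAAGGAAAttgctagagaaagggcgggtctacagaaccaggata
The letters occur on both strands in Il2 and as 2 copies on the opposite strand in Ccl1. No binding was measured.

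Of the lower genes of smallest p, Usp18, Phf11b, Ly6a and Ccl3 are described above, and 5 others lie outside the lists of interferon genes and cytokines. AW112010, a transcript that interferon and T cell activation induce, had 1113, 2671 and 2403 CPM in Ebi3L cells and 2236, 1918 and 3994 CPM in yfp cells. The groups overlapped, and were apart within each batch (log2 difference -0.85 ± 0.16, edgeR adjusted p = 0.223). Cd244, the receptor 2B4 of exhausted and cytotoxic lymphocytes, had 11.0005, 13.1 and 3.62 CPM in Ebi3L cells, against 62.5, 74.5 and 37.2 CPM in yfp cells (-2.47 ± 0.52, adjusted p = 0.355). Serpina3g, an intracellular protease inhibitor of activated T cells, had 146, 143 and 199.8 CPM in Ebi3L cells, against 324, 475 and 315 CPM in yfp cells (-1.24 ± 0.27, adjusted p = 0.371). Gimap7, a GTPase of lymphocytes, had 209.5, 205 and 160.4 CPM in Ebi3L cells, against 449, 438 and 432 CPM in yfp cells (-1.23 ± 0.28, adjusted p = 0.371). Oxsr1, a kinase that controls chloride transport under osmotic stress, had 49.1, 44.0 and 35.8 CPM in Ebi3L cells, against 96.6, 75.2 and 69.7 CPM in yfp cells (-0.88 ± 0.19, adjusted p = 0.371). The groups did not overlap for these last 4 genes.

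Memory and stem-like genes leaned higher in Ebi3L cells. Of 22 tested, 18 had a positive log2 difference, 6 were higher at an unadjusted p under 0.05 against 2.23% of all genes, and 1 was lower, and the median was 0.58. The summed level was 3174, 4140 and 4071 CPM in Ebi3L cells, against 2663, 3103 and 2864 CPM in yfp cells, without overlap (exact permutation p = 0.1, the smallest possible). Slamf6, a receptor used to mark progenitor exhausted cells, had 377, 305 and 226 CPM in Ebi3L cells, against 215, 175 and 156 CPM in yfp cells (0.79 ± 0.17, adjusted p = 0.364). The groups did not overlap for Slamf6. Tcf7, the transcription factor of stem-like T cells, did overlap, at 274, 164 and 143 CPM in Ebi3L cells and 193, 161 and 108 CPM in yfp cells (0.50 ± 0.19). Dapl1, a gene of naive and memory CD8 cells, was the lower member, at 17.4, 188 and 253 CPM in Ebi3L cells and 48.8, 135 and 353 CPM in yfp cells (-1.60 ± 0.44, adjusted p = 0.684). Without yfp library 3 the list's median was 0.196.

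Among exhaustion and effector regulators the members were split, with 12 of 21 positive, 2 higher at an unadjusted p under 0.05 against 2.23% of all genes and 2 lower against 2.44%. The median was 0.30, but 0.09 within batch 1 and 0.03 within batch 3. Eomes, a T-box factor of memory and exhausted cells, had 326, 324 and 133 CPM in Ebi3L cells, against 111, 59.3 and 132 CPM in yfp cells, with the groups narrowly apart (1.29 ± 0.39, adjusted p = 0.91). Prdm1, which encodes the effector factor BLIMP-1, had 75.8, 18.6 and 12.3 CPM in Ebi3L cells and 130.2, 72.0 and 38.6 CPM in yfp cells (-0.94 ± 0.33). Tox, the factor that sustains the exhausted state, had 261, 204 and 180.0 CPM in Ebi3L cells, against 328, 329 and 266 CPM in yfp cells (-0.47 ± 0.25). The Tox groups did not overlap, and those of Prdm1 did. Of 14 inhibitory receptors, 2 were lower at an unadjusted p under 0.05, Cd244 and Entpd1, against 2.44% of all genes, and 0 were higher against 2.23%. The median was -0.13, with -0.48 within batch 1 and -0.04 within batch 3. Entpd1, the ectonucleotidase CD39 of terminally exhausted cells, had 19.4, 8.65 and 9.30 CPM in Ebi3L cells, against 58.0, 65.7 and 25.2 CPM in yfp cells, with no overlap (-1.65 ± 0.47, adjusted p = 0.711). Lag3 had 8.13, 10.3 and 18.1 CPM in Ebi3L cells and 28.6, 31.7 and 16.2 CPM in yfp cells (-1.11 ± 0.57), and Tigit had 212, 311 and 339 CPM in Ebi3L cells and 232, 387 and 343 CPM in yfp cells (-0.39 ± 0.31). Both overlapped, as did Pdcd1 (0.08 ± 0.22) and Havcr2 (-0.95 ± 0.45), the genes of the sort. Tigit and Havcr2 were apart within each batch, with Ebi3L lower.

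The cytotoxic effector genes had 3 of 16 members lower at an unadjusted p under 0.05 against 2.44% of all genes and 0 higher, with a median of -0.33. Without yfp library 1 there was 1 of 15 lower, against 1.66% of all genes, and the median was -0.166. Prf1, which encodes perforin, had 85.9, 74.6 and 68.3 CPM in Ebi3L cells, against 137, 177 and 109.9 CPM in yfp cells, without overlap (-0.82 ± 0.32). Gzmb, which encodes granzyme B, had 211, 245 and 52.3 CPM in Ebi3L cells and 1169.7, 578 and 232 CPM in yfp cells, with overlap (-1.42 ± 0.87). Gzme, a granzyme of strongly activated cells, was at 0 in every Ebi3L library and had 0.853, 0 and 7.68 CPM in yfp cells. In the edgeR test of the difference between populations, 6 members of this list were below an unadjusted p of 0.05 between SP and DP, against 3.11% of all genes, and 0 were called. DESeq2 called Prf1 for that difference. In DP cells the median of the list was 0.213.

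Genes of mitosis leaned lower. All 38 tested genes of mitosis and cytokinesis had a negative log2 difference, 6 of them at an unadjusted p under 0.05 against 2.44% of all genes, with a median of -0.61. Without yfp library 1 the median was -0.47, with 2 of 38 lower against 1.66% of all genes. Of 37 genes of DNA replication and S phase, 34 were negative with a median of -0.34, but the 2 at an unadjusted p under 0.05 were near the share of all genes, and the median was 0.04 within batch 1 and -0.75 within batch 3. The summed mitosis level was 5070, 2228 and 3362 CPM in Ebi3L cells and 7430, 4808 and 4860 CPM in yfp cells, and the groups overlapped because Ebi3L library 1 lay above yfp libraries 2 and 3. Cenpf, a kinetochore protein, had 107, 59.7 and 88.4 CPM in Ebi3L cells, against 218, 176 and 155 CPM in yfp cells, without overlap (-1.05 ± 0.32, adjusted p = 0.894). Cenpe, the kinetochore motor, had 190.4, 87.0 and 107 CPM in Ebi3L cells and 329, 236 and 179 CPM in yfp cells (-0.80 ± 0.31), and Mki67, the proliferation marker, had 903, 133 and 175 CPM in Ebi3L cells and 1204, 805 and 294 CPM in yfp cells (-0.62 ± 0.30). Both overlapped through Ebi3L library 1. Of the replication genes, Pola1, the catalytic chain of the DNA polymerase that starts new strands, had 106, 46.1 and 43.8 CPM in Ebi3L cells and 171, 114 and 95.1 CPM in yfp cells (-0.83 ± 0.27), and Rfc5, a clamp loader subunit, had 148, 83.3 and 121 CPM in Ebi3L cells, against 189, 159 and 178 CPM in yfp cells (-0.59 ± 0.24). The mitosis median was -0.563 in INT, -0.572 in DP and -1.01 in NEG cells and had the opposite sign, 0.811, in NDLN cells. At an unadjusted p under 0.05, 22 of 38 were lower in DP cells, against 3.21% of all genes, more than in SP cells. In INT cells 1 of 38 was lower, against 2.51%, and in NEG cells 1 of 38, against 2.42%. All members of a list were measured in the same 6 libraries, so members of the same sign are not replicates of each other.

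Immediate early and AP-1 genes, which T cell receptor signalling induces within minutes, had 22 of 27 tested members positive, 4 higher at an unadjusted p under 0.05 against 2.23% of all genes, 0 lower, and a median of 0.35. Without yfp library 1 there was 1 of 27 higher, against 2.01% of all genes, and the median was 0.05 within batch 1 and 0.61 within batch 3. Egr2 had 21.7, 16.3 and 49.8 CPM in Ebi3L cells, against 14.1, 13.7 and 10.6 CPM in yfp cells, without overlap (1.06 ± 0.48). Egr1 overlapped, at 47.7, 17.4 and 34.6 CPM in Ebi3L cells and 24.9, 16.7 and 9.37 CPM in yfp cells (1.26 ± 0.45). Of the unfolded protein and heat shock genes, 21 of 25 were negative and 4 were lower at an unadjusted p under 0.05 against 2.44% of all genes, with a median of -0.19. Without yfp library 1, 2 of 25 were lower against 1.66% of all genes. The endoplasmic reticulum chaperone Hsp90b1 had 727, 574 and 541 CPM in Ebi3L cells, against 929.8, 885 and 982 CPM in yfp cells, without overlap (-0.64 ± 0.21, adjusted p = 0.941). Hsph1, a cytosolic heat shock protein, had 194, 98.5 and 99.2 CPM in Ebi3L cells and 312, 385 and 116 CPM in yfp cells (-0.61 ± 0.24). The summed level of the chaperone list was 12992, 10398 and 10638 CPM in Ebi3L cells, against 14105, 13297 and 13019 CPM in yfp cells, and the sums were narrowly apart.

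**Figure D5:**
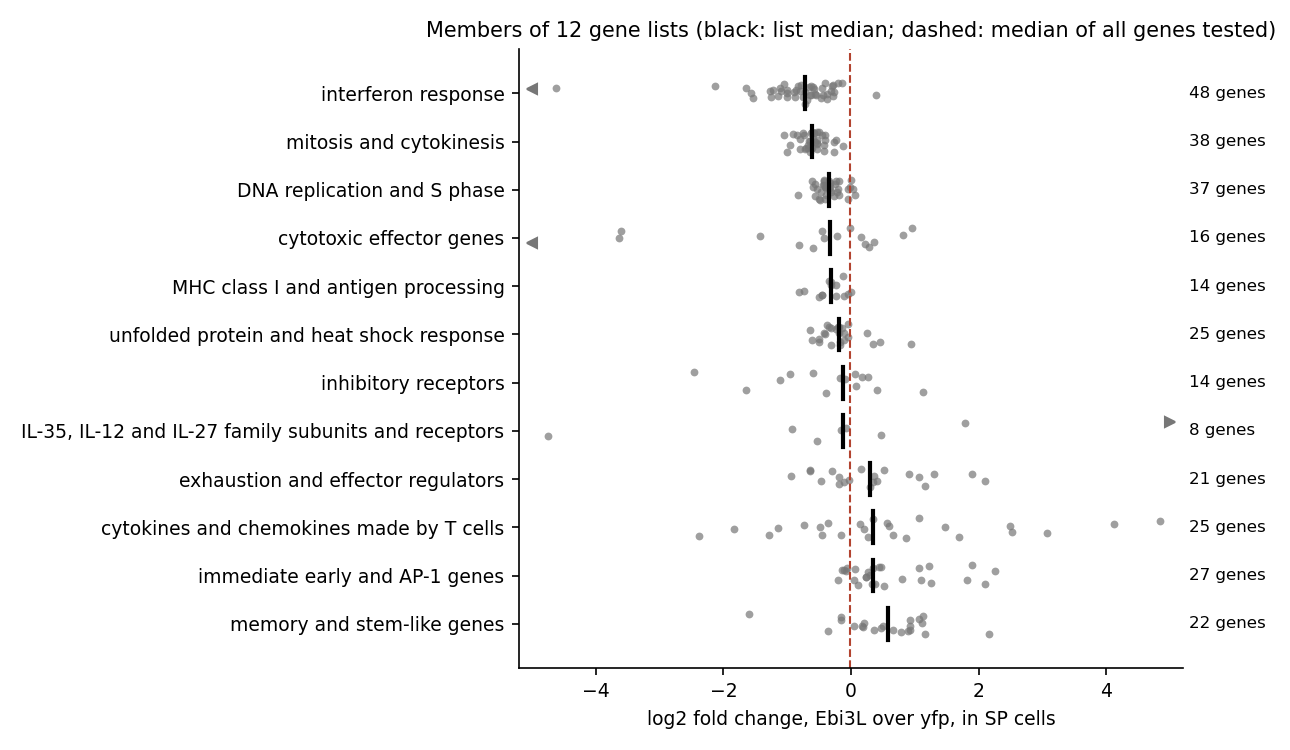
Log2 fold change, Ebi3L over yfp, in SP cells for each tested member of 12 gene lists, with a black line at each list's median, a dashed line at the median of all 13255 genes tested (-0.02), and triangles for genes beyond the axis. The interferon list has the lowest median, -0.72, and the memory list the highest, 0.58.

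The T cell identity of the libraries was checked against marker lists. The 8 CD8 T cell markers in the table summed to 4849, 7686 and 8673 CPM in Ebi3L cells and 6496, 6352 and 8234 CPM in yfp cells. Cd8a itself had 886, 1120.1 and 1266 CPM in Ebi3L cells, against 1417, 1447 and 1395 CPM in yfp cells, without overlap (-0.53 ± 0.15, adjusted p = 0.707). The CD4 T cell and Treg markers, 12 in the table, summed to 1180, 2134 and 2442 CPM in Ebi3L cells, against 834, 1174 and 1174 CPM in yfp cells, and were narrowly apart. Tnfrsf4, the costimulatory receptor OX40 that activated CD8 cells also carry, had the highest level in that list in every library, at 694, 1707 and 1949.7 CPM in Ebi3L cells and 356, 614 and 898 CPM in yfp cells (0.70 ± 0.34). Cd40lg, the CD40 ligand of helper cells, had 14.5, 6.08 and 12.3 CPM in Ebi3L cells, against 2.93, 2.08 and 3.71 CPM in yfp cells, without overlap (1.84 ± 0.46, adjusted p = 0.541). Gpr83, another Treg marker, was at 0 in all 6 libraries. The 26 myeloid and dendritic markers in the table summed to 680, 1963 and 1752 CPM in Ebi3L cells and 511, 797 and 977 CPM in yfp cells, and overlapped. Cst3, a protease inhibitor named after its values were seen, had 158, 1357 and 1078 CPM in Ebi3L cells and 134, 287 and 415 CPM in yfp cells (0.50 ± 0.55). The 2 members of smallest p had negative differences. Fcer1g, a signalling chain that NK cells share, had 2.11, 6.43 and 4.21 CPM in Ebi3L cells, against 15.3, 17.2 and 21.1 CPM in yfp cells, without overlap (-2.53 ± 0.77, adjusted p = 0.91), and Ctss, the protease cathepsin S, had 100.5, 156 and 209.7 CPM in Ebi3L cells and 208, 204 and 188 CPM in yfp cells, with overlap (-0.61 ± 0.25). The defining markers Lyz2 and Csf1r had at most 0.586 CPM in any library. NK and gamma-delta T cell, pigment cell, stromal and erythroid marker sums overlapped between genotypes. The part of other cell types in the differences above was not tested.

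The DKO genotype, the double knockout, was compared with the same 3 yfp libraries in the same fit. Because both comparisons share the yfp libraries, their values are set side by side and nothing is counted between them. Rab4a had a log2 difference of 3.29 in Ebi3L and 4.04 in DKO cells, Ifitm2 3.37 in Ebi3L and 2.93 in DKO cells, Il2 4.12 in Ebi3L and 5.05 in DKO cells, and Cd244 -2.47 in Ebi3L and -2.65 in DKO cells. For Usp18 the values were -1.65 in Ebi3L and -0.14 in DKO cells, and for Oas1a -1.14 in Ebi3L and 0.32 in DKO cells. The median of the interferon list was -0.72 in Ebi3L and 0.06 in DKO cells, a difference that was not tested. Ebi3 had -4.74 in Ebi3L and -5.43 in DKO cells.

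Against the neighbouring tumour populations, the Ebi3L effect in SP cells was not shown to differ for any gene in edgeR. The interaction between population and genotype, fitted in edgeR over 18 libraries with each source as a block, called 0 of 13074 genes for SP against INT and 0 for SP against DP, with 449 (3.43%) and 407 (3.11%) at an unadjusted p under 0.05. DESeq2 called 98 genes for SP against INT, Cd244 and Eomes among them, and 80 for SP against DP, Prf1 among them. Several of the higher genes were uneven between populations. Il2 had a log2 difference of 4.12 in SP, -0.26 ± 0.80 in INT and 3.98 ± 3.93 in DP cells. Ccl1 had 2.49 in SP, -1.18 ± 1.60 in INT and 1.89 ± 2.16 in DP cells. Penk had 2.84 in SP, -0.63 ± 2.16 in INT and 3.98 ± 1.56 in DP cells. In DP cells Il2 had at most 2.18 CPM in a library, and Ccl1 had 61.9, 111.6 and 1925 CPM in Ebi3L libraries. The mean INT levels of Ccl1 (42.7 against 30.12 CPM) and Penk (55.67 against 14.85 CPM) were higher in Ebi3L libraries, unlike the signs of the fitted differences. In INT cells the level of Il2 was itself variable, with 7.68, 14.6 and 60.4 CPM in Ebi3L libraries and 6.43, 6.51 and 58.9 CPM in yfp libraries. The SP-minus-DP difference of Prf1 was -1.31 ± 0.38 (edgeR unadjusted p = 0.00479, adjusted p = 1), with a log2 difference of -0.82 in SP and 0.64 in DP cells. Prf1 was called there by DESeq2 and not by edgeR. The SP-minus-INT difference of Usp18 was -0.93 ± 0.24 (edgeR unadjusted p = 0.00157, adjusted p = 1).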

How the data were processed

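RNA was sequenced from sorted mouse CD8 T cells. The authors deposited whole-number read counts per gene for 23420 genes, and the submitters' processing notes name mm10, STAR, Subread and featureCounts. The annotation, the strand setting and the tool versions were not given in the sources used, and reads of overlapping genes may therefore be mixed. For the CD8 libraries the authors deposited log2 values of 10150 genes too, which equalled quantile-normalised log2 CPM up to a constant per gene and batch (median within-batch SD 2.92e-15) and served 1 alternative.

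Groups came from the titles and characteristics, and 0 columns of the tables used were of no sample. Counts were tested with edgeR 4.0.16 in R 4.3.3 (TMM scaling, filterByExpr, robust quasi-likelihood fit) over 12 SP libraries with genotype and batch as terms, and adjusted by Benjamini-Hochberg over all genes tested. CPM values use the library total alone and no TMM factor. The difference between populations was an interaction over 18 libraries with source as a block. Alternatives were DESeq2 1.42.0, limma 3.58.1, other filters and scalings, blocks, left-out libraries and within-batch contrasts. The scripts were tested on simulated data. Named were the 10 genes of smallest p in each direction, the 2 of smallest p in each list and a fixed set of sort, IL-35 and exhaustion genes; others are marked as chosen after their values were seen. Some genes that this rule names are not reported here. The comparison, gene lists and named genes were chosen with earlier results of these data known. No 2 libraries were duplicates, with chi-square values of 70 to 420 per gene between libraries of a group.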

Additional observations from a re-analysis of the deposited data

How the results depend on the processing

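The counts of called genes (0 higher and 0 lower) changed under several settings. DESeq2 called 59 higher and 52 lower, of which 42 had an absolute log2 fold change over 15, and no filter on low counts gave 79 higher and 78 lower. Over the 6 Ebi3L and yfp libraries alone there were 3 higher (Ccl1, Penk, Csf2) and 2 lower (Gimap7, Plac8). The replicate numbers were not taken to pair the samples, since Ebi3L and yfp libraries of the same number had correlations of deviations of 0.206, -0.0874 and 0.133, and 3 of 6 pairs of the same set were above 0.1 (median 0.0925). With the set as replicate block there were 5 higher (Ramp1, Ccl1, Rgcc, Ifitm2, Penk) and 1 lower (Iigp1), and with the title number as replicate block 2 higher (Penk, Ccl1) and 1 lower (Gbp10). Leaving out each library in turn gave 0 to 2 higher and 0 lower, the 2 being Ifitm2 and Rab4a without yfp library 1. With batch as a term, the fit without yfp library 3 estimates the batch 1 contrast. The fit without Ebi3L library 1 likewise estimates the batch 3 contrast, so neither is a check separate from the within-batch contrasts. In an alternative chosen after seeing the data, the 6-library fit without yfp library 1, 2 were higher (Penk, Ccl1). RLE scaling, a minimum mean of 1 CPM, no batch term, limma and the within-batch contrasts gave 0 and 0.

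Of list members called, DESeq2 had 6 interferon genes, 6 cytokines, 2 memory genes, 1 inhibitory receptor and 1 member of the IL-35 family list. These lists had 48, 25, 22, 14 and 8 members tested in the main fit, and DESeq2 called 0.84% of all genes. The 6 interferon genes called were lower. Of the cytokines Il2, Csf2, Ccl1 and Tnfsf8 were higher, and Ccl3 and Spp1 lower. Of the memory genes Slamf6 was higher and Dapl1 lower. Cd244 and Ebi3 were lower. The set block called 1 interferon gene and 1 cytokine, against 0.0453% of all genes. It moved the cytokine median to 0.86 and the IL-35 family median to -1.05. The 6-library fit called 2 cytokines, against 0.0418% of all genes. The same fit without yfp library 1 called 1 cytokine, against 0.0161%. Leaving out a library moved the median of the memory list to between 0.196 and 0.805 and that of the inhibitory receptors to between -0.482 and -0.0364, lowest without yfp library 3 in both. Medians were the same with Ifi44, Gzme and Il23a, which were at 0 in a genotype, set at the bound that 3 counts allow. For SP minus INT DESeq2 called 98 genes, and for SP minus DP 80; single left-out libraries gave 0 to 1 for SP minus DP (Gzmd, Gzme or Gm12185).

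Signs turned for Pdcd1 (-0.27 to 0.43 over the left-out libraries, with -0.27 the batch 1 contrast), Il6st (-0.57 to 0.40 over the left-out libraries, with 0.40 the batch 1 contrast), Il23a (-4.5e-15, that is no difference, to 9.75 over the left-out libraries) and Psmb8 (0.0164 with the set block). The cause of these shifts was not tested. With 3 libraries a genotype, 1 per genotype and set at most, and 1 library of unlike X- and Y-linked expression, small differences could not be resolved.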
